A study of Oryza sativa with 3 samples.

Results

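The fragments described here carry the label of the serine tRNAs with anticodon AGA or CGA in developing rice pollen. They are the sequences that a deposited list of tRNA-derived fragments labels with either anticodon, 776 of the 18424 distinct sequences in 3 lists. The AGA label was given to 320 of them and the CGA label to 456. The UNM list held 267 of them, the BCP list 604 and the TCP list 286.

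Spores of the field-grown rice (Oryza sativa) cultivar Guichao No.2 were separated on a sucrose gradient and their small RNAs sequenced on an Illumina platform. The stages are uninucleate microspores (UNM), the haploid spores before their first division, bicellular pollen (BCP), in which a generative cell lies inside the vegetative cell, and tricellular pollen (TCP), in which the generative cell has divided into sperm cells. Each stage has 1 library, so no difference between stages has a replicate check and none was tested. The UNM list held 686685 reads and the BCP list 4958412 reads, 7.22 times as many, whereas the TCP numbers, which lie between 1 and 28, were not taken as reads and TCP entered only by which sequences it lists.

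A share is the percentage of all tRNA-derived reads listed for a library, and the intervals in parentheses are exact 95% intervals. They cover counting error only, because without molecular identifiers a read is not an independent molecule. These are bulk spores, so fewer cells of a type and less RNA per cell cannot be told apart. The lists hold no marker genes against which the stage labels could be checked.

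Transfer RNAs fold into a cloverleaf with a D arm near the 5′ end, an anticodon arm in the middle, a variable arm and a T arm before the 3′ end, and endonucleases that cut in its loops release fragments. Serine tRNAs have a long variable arm, which seryl-tRNA synthetase recognises in place of the anticodon. The AGA and CGA isoacceptors both read serine codons that begin with UC, the CGA tRNA only the codon UCG. The rice gene table of assembly ASM3414082v1 annotates 10 nuclear tRNA-Ser genes for AGA and 6 for CGA.

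To place the fragments, 1 parent sequence per anticodon was assembled from the overlapping listed fragments. Base 1 is the first base of the leading 5′ fragments. Both came to 82 bases, 61 of them identical without gaps (74.4%). Capitals mark the 7 bases of the anticodon loop, bases 32 to 38, in which the anticodon takes bases 34 to 36.
Assembled tRNA-Ser AGA: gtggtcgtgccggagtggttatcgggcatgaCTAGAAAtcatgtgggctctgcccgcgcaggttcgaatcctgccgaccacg
Assembled tRNA-Ser CGA: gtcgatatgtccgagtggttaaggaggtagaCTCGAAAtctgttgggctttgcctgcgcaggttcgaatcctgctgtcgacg
In both, a stem of 4 base pairs from base 45 on closes a variable-arm loop at bases 49 to 51. Fragments that start at base 3 or before are called 5′ fragments, those that start at bases 33 to 39 loop-start fragments, and those that end within the last 3 bases or beyond 3′ fragments. All others are internal.

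The leading 5′ fragments are shown because the AGA change turns on the first 3 and the CGA change on the last. Capitals mark the bases after the first 13.
AGA 5′, 13 nt: gtggtcgtgccgg
AGA 5′, 14 nt: gtggtcgtgccggA
AGA 5′, 15 nt: gtggtcgtgccggAG
CGA 5′, 13 nt: gtcgatatgtccg
CGA 5′, 17 nt: gtcgatatgtccgAGTG
The leading loop-start fragments are shown because they replaced the 5′ fragments at the head of the AGA list. Capitals mark bases of the anticodon loop.
AGA loop, 15 nt: AAtcatgtgggctct
AGA loop, 14 nt: AAtcatgtgggctc
AGA loop with the third anticodon base, 16 nt: AAAtcatgtgggctct
AGA loop, other form, 15 nt: AAtcatgtgggcttt
CGA loop, 15 nt: AAtctgttgggcttt
CGA loop, other form, 15 nt: AAtctactgggctct
The leading AGA loop fragment has 11 of 15 bases in common with the first of these CGA fragments and 12 of 15 with the second.

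The shares of the isoacceptors went in opposite directions between UNM and BCP. AGA fragments had 16149 reads in UNM, 2.35% of the list (2.32 to 2.39), and 22391 in BCP, 0.452% (0.446 to 0.458). Their share was 5.21-fold lower in BCP (5.10 to 5.31). CGA fragments had 4026 reads in UNM, 0.586% (0.568 to 0.605), and 70950 in BCP, 1.43% (1.42 to 1.44). Their share was 2.44-fold higher in BCP (2.36 to 2.52). AGA reads thus outnumbered CGA reads 4.01 to 1 in UNM (3.87 to 4.15), while CGA reads outnumbered AGA reads 3.17 to 1 in BCP. The CGA direction rests on a single sequence, described below.

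The other serine isoacceptors did not share 1 direction either. TGA fragments took 16.2% of UNM and 2.17% of BCP reads, 7.46-fold lower. GCT fragments took 1.28% and 1.51%, and GGA fragments 0.00801% and 0.148%. AGA and CGA together made up 14.4% of the tRNA-Ser reads in UNM and 32.95% in BCP. A share depends on what else is in the list: with the tRNA-Asp fragments left out of the totals, the log2 ratio was -1.75 for AGA in place of -2.38, and 1.92 for CGA in place of 1.29.

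Sequences were compared one by one where both libraries together gave at least 50 reads, which 27 of the 320 AGA and 39 of the 456 CGA sequences reached. A sequence counts as higher or lower in BCP when its share differs at least 2-fold and the interval excludes 1. Of all 1794 sequences compared, 68.2% were higher and 17.2% lower in BCP, with a median log2 ratio of 2.01. Of the AGA sequences, 14 were higher and 10 lower (51.9% and 37.0%), with a median of 2.09. Of the CGA sequences, 20 were higher and 11 lower (51.3% and 28.2%), with a median of 1.02. With BCP thinned to the UNM total, 15 AGA sequences could be compared, of which 6 were higher and 9 lower, and 16 CGA sequences, of which 6 were called in each direction. Percentages over all sequences are not given here for the thinned setting, so these counts have no background. At full depth, lower calls thus took a larger part of both lists than of all sequences, and higher calls a smaller one.

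Within AGA, the region of the tRNA from which the reads came differed between the stages. In UNM, 5′ fragments made up 15204 of the 16149 AGA reads (94.1%, 93.8 to 94.5) and loop-start fragments 450 (2.79%, 2.54 to 3.05). In BCP, 5′ fragments made up 1441 of 22391 reads (6.44%, 6.12 to 6.76) and loop-start fragments 20293 (90.6%, 90.2 to 91.0). As shares of the whole list, 5′ fragments were 76.2-fold lower in BCP (72.2 to 80.5) and loop-start fragments 6.25-fold higher (5.69 to 6.87). The lower AGA share as a whole thus joins opposite movements of its regions. The smaller classes were lower in BCP: 3′ fragments went from 263 to 237 reads, 8.01-fold lower in share (6.70 to 9.59), and internal fragments from 232 to 420 reads, 3.99-fold lower (3.38 to 4.69). The first base follows from the region, since the leading 5′ fragments begin with G and the leading loop-start fragments with A. It was G in 94.0% of UNM and 8.64% of BCP reads, and A in 1.75% and 88.5%.

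The AGA 5′ fragments of UNM were nearly all short forms that end in the D arm. The 14-nt fragment had 11534 UNM reads and 189 BCP reads, 441-fold lower in share (382 to 512). The 15-nt fragment, longer by its final G, had 3060 and 510 reads and was 43.3-fold lower (39.4 to 47.7). The 13-nt fragment had 389 and 23 reads and was 122-fold lower (80.2 to 195). The 3 nested forms thus all had a lower share in BCP, but by different amounts, and the 15-nt form took the lead from the 14-nt form there. The 14-nt sequence alone held 71.4% of the AGA reads of UNM, and it and the 15-nt one held 90.4%. All 3 are listed in TCP. A form that lacks the first base, tggtcgtgccgga, had 73 UNM reads and 3 BCP reads, 176-fold lower (57.8 to 872). The internal fragment tcgtgccggagtgg, which starts at base 5, had 105 and 9 reads, 84.2-fold lower (42.7 to 189). Neither is listed in TCP.

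A minor part of the AGA 5′ reads of BCP was longer and ended at the edge of the anticodon loop. Reads of 30 nt or more were 2 of 15204 of the 5′ reads in UNM (0.0132%) and 194 of 1441 in BCP (13.5%, 11.7 to 15.3). Those that end at base 31, the last base before the loop, had 149 reads in BCP, 10.3% of its AGA 5′ reads. The leading ones are given here with the bases after the first 13 in capitals.
AGA 5′, 31 nt: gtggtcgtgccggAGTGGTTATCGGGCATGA
AGA 5′, other form, 31 nt: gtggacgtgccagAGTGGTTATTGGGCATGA
The first had 1 UNM read and 77 BCP reads, 10.7-fold higher in share (1.86 to 427). The second had 1 and 68 reads, 9.42-fold higher (1.63 to 377). Both intervals are wide because of the single read in UNM, and both sequences are listed in TCP. The second belongs to a form of the 5′ end that starts with gtgga in place of gtggt. That form had 21 UNM reads and 185 BCP reads, a ratio of shares of 1.22 (0.775 to 2.02) whose interval includes 1, whereas the gtggt form had 15086 and 1232 reads and was 88.4-fold lower (83.4 to 93.8). It made up 0.138% of the AGA 5′ reads of UNM and 12.8% of those of BCP.

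The AGA loop-start fragments of BCP ran from the anticodon loop to the loop of the variable arm. In BCP, 71.3% of their reads started at base 37, right after the anticodon, and 25.1% at the third anticodon base. They ended at base 50 in 44.3% and at base 51 in 54.4% of reads, both within the variable-arm loop. In UNM, 47.6% started right after the anticodon, 38.0% at base 39, just past the loop, and 71.1% ended at base 51. A larger part of UNM than of BCP reads thus started past the anticodon loop, and most reads of both ended in the variable-arm loop.

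The leading fragment of the BCP set, AAtcatgtgggctct, had 98 UNM reads and 6271 BCP reads, 8.86-fold higher in share (7.26 to 10.9). Its 14-nt form, without the final T, had 56 and 6192 reads and was 15.3-fold higher (11.8 to 20.3). The 16-nt form AAAtcatgtgggctct had 25 and 2632 reads, 14.6-fold higher (9.85 to 22.6). These forms share their end region and differ in length by single bases. The same start with the end at base 50, AAAtcatgtgggctc, had 7 and 2043 reads, 40.4-fold higher (19.6 to 101). The forms with 1 more base of the anticodon were thus also higher, up to the 17-nt GAAAtcatgtgggctct with 2 and 134 reads, 9.28-fold higher (2.52 to 77.4). The form without both loop bases, tcatgtgggctct, went the other way. It had 137 UNM reads and 145 BCP reads, 6.82-fold lower (5.36 to 8.68), and it was the most abundant AGA loop-start fragment of UNM. Of the 15 loop-start sequences compared, 10 were higher and 2 lower (66.7% and 13.3%), close to the shares among all sequences.

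The AGA loop-start fragments came in forms that differ at base 50, in the variable-arm loop. Fragments with gggctc had 350 UNM reads and 17700 BCP reads, 7.004-fold higher in share (6.30 to 7.81). Fragments with gggctt, such as AAtcatgtgggcttt (19 and 1431 reads, 10.4-fold higher, 6.65 to 17.4), had 71 and 2396 reads, 4.67-fold higher (3.69 to 6.004). Both forms moved in the same direction, the first by more. At the other end of the molecule, the 3′ fragment tcctgccgaccacgc had 127 UNM reads and 62 BCP reads, 14.8-fold lower (10.8 to 20.4).

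In CGA the regions changed in the other sense. 5′ fragments made up 1478 of 4026 reads in UNM (36.7%, 35.2 to 38.2) and 63953 of 70950 in BCP (90.1%, 89.9 to 90.4). Their share of the list was 5.99-fold higher in BCP (5.69 to 6.31). Loop-start fragments made up 2148 reads in UNM (53.4%, 51.8 to 54.9) and 4922 in BCP (6.94%, 6.75 to 7.13), a 3.15-fold lower share of the list (2.99 to 3.32). So AGA went from 5′ to loop-start fragments and CGA, by its labels, from loop-start to 5′ fragments. The CGA change to 5′ fragments rests on the 17-nt fragment described below. That fragment held 27.4% of the CGA 5′ reads in UNM and 97.6% in BCP. The other sequences with the same start, under either label, took 0.220% of the list in UNM and 0.0496% in BCP, a lower share. The CGA 3′ fragments had 324 and 488 reads, 4.79-fold lower (4.15 to 5.53).

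The higher CGA share rested on the 17-nt 5′ fragment gtcgatatgtccgAGTG. It had 405 UNM reads and 62437 BCP reads, where it was 1.26% of the list and 88.0% of CGA reads, and its share was 21.4-fold higher (19.4 to 23.6). It is also listed in TCP. Without it, CGA fragments had 3621 UNM reads (0.527%) and 8513 BCP reads (0.172%), 3.07-fold lower (2.95 to 3.19). The opposite directions of the isoacceptors thus hold only with this sequence.

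Sequences that differ from it by a few bases at the 3′ end went in both directions, at far fewer reads in BCP. Under either label, CGA or TGA, 21 sequences share its first 13 bases. The 13-nt fragment had 852 UNM reads and 112 BCP reads, 54.9-fold lower (45.1 to 67.5). The 14-nt fragment had 329 and 109 reads, 21.8-fold lower (17.5 to 27.3). The 16-nt fragment, 1 base short of the 17-nt one, had 3 and 232 reads, 10.7-fold higher (3.62 to 52.3). The shorter forms were thus lower except the one next to it. The 18-nt fragment, 1 base longer, had 186 and 820 reads, 1.64-fold lower (1.39 to 1.92). The 19-nt one had 14 and 416 reads, 4.12-fold higher (2.42 to 7.59), and the 23-nt one 2 and 211, 14.6-fold higher (3.99 to 121). A 17-nt form that ends in A in place of G, labelled TGA, had 1 and 81 reads, 11.2-fold higher (1.96 to 448). The 17-nt form made up 21.2% of the reads with this start in UNM and 96.2% in BCP, and without it the others went from 1509 to 2459 reads, a log2 ratio of -2.15.

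Fragments that end at the same base but start later were fewer and had smaller ratios. The 15-nt cgatatgtccgagtg had 3 UNM reads and 205 BCP reads, 9.46-fold higher (3.19 to 46.3), an interval that includes the 21.4-fold of the 17-nt fragment. The 14-nt gatatgtccgagtg had 10 and 403 reads, 5.58-fold higher (3.00 to 11.7). The 13-nt atatgtccgagtg had 6 and 57 reads, a ratio of 1.32 (0.569 to 3.73) whose interval includes 1. The end at base 17 was thus more frequent in BCP for these starts except the last. The internal fragment tatgtccgagtgg, which starts at base 6 and ends at base 18, had 43 and 17 reads, 18.3-fold lower (10.2 to 34.2), and is not listed in TCP.

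The CGA label cannot be separated from the TGA label for most of these reads. Of the 456 CGA sequences, 26 carry the TGA label in another list, with 37.9% of the CGA reads of UNM and 1.69% of those of BCP, whereas none of the 320 AGA sequences changes its label. Sequences contained in a TGA-labelled sequence held 75.7% of the CGA reads in UNM and 91.7% in BCP. All CGA 5′ reads, the 17-nt fragment included, are among them. For AGA, sequences contained in one with another label held 0.0495% and 0.00893% of reads.

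The label bears directly on the CGA loop-start fragments. The 13-nt AAtctgttgggct had 865 reads in UNM, labelled CGA, and 523 in BCP, labelled TGA, 11.9-fold lower (10.7 to 13.3). The 14-nt AAtctgttgggctt had 600 reads under CGA and 3983 under TGA, a ratio of 0.919 (0.844 to 1.003). The 15-nt AAtctgttgggcttt, labelled CGA in every list, had 186 and 2375 reads, a ratio of 1.77 (1.52 to 2.06). Longer forms thus had the higher ratios. With the TGA-labelled reads that place on the assembled CGA sequence added, loop-start fragments took 0.584% of UNM and 0.518% of BCP reads, a ratio of 0.887 (0.858 to 0.918), while 5′ fragments took 0.285% and 1.32%, 4.65-fold higher (4.45 to 4.87). With these reads the CGA loop-start share was thus lower by little, and the 5′ share was still higher. That 5′ share again rests on the 17-nt fragment, with 405 of its 1954 reads in UNM and 62437 of its 65665 in BCP.

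CGA sequences that are in no TGA-labelled sequence had 977 UNM reads (0.142%) and 5860 BCP reads (0.118%), a ratio of 0.831 (0.776 to 0.890). Their loop-start fragments had 659 and 4346 reads, a ratio of 0.913 (0.841 to 0.993), and their 3′ fragments 266 and 453 reads, 4.24-fold lower. This set holds the form with ctact after the anticodon loop, of which none of 56 loop-start sequences is in a TGA-labelled one. That form had 33 UNM reads and 1157 BCP reads, 4.86-fold higher (3.44 to 7.09). Its leading fragment AAtctactgggctct had 1 and 570 reads, 78.9-fold higher (14.1 to 3123), and AAAtctactgggctct had 1 and 205 reads, 28.4-fold higher (5.04 to 1127). Both ratios rest on 1 UNM read. The same fragments without the final T had 6 and 99 reads, 2.29-fold higher (1.01 to 6.38), and 2 and 63 reads, 4.36-fold higher (1.16 to 36.8). AAtctactgggctct has 12 of 15 bases in common with AAtctgttgggcttt, as many as with the leading AGA loop fragment. The form with ctgtt had 2115 and 3765 CGA-labelled reads, 4.06-fold lower (3.84 to 4.28), the value that the TGA label touches. Its short fragment tctgttgggcttt, which starts at base 39 as the lower AGA fragment does, had 195 and 83 reads, 16.96-fold lower (13.1 to 22.2). The CGA 3′ fragment cctgctgtcgacg had 44 and 21 reads, 15.1-fold lower (8.81 to 26.8).

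Grouped by their first 13 bases, 5 AGA groups with at least 1% of reads in UNM or BCP held 96.2% of the AGA reads of UNM and 94.7% of those of BCP, and 8 such CGA groups held 93.9% and 96.1%. The 3 CGA groups at the 3′ end were all lower in BCP. The group that starts with tcctgctgtcgac went from 149 to 115 reads, 9.36-fold lower (7.29 to 12.04), cctgctgtcgacg from 61 to 25, 17.6-fold lower (10.9 to 29.3), and atcctgctgtcga from 51 to 66, 5.58-fold lower (3.79 to 8.16). The AGA group at this end, tcctgccgaccac, went from 192 to 84 reads, 16.5-fold lower (12.7 to 21.6). The CGA loop-start groups differed. By CGA-labelled reads, aatctgttgggct, which held 42.8% of the CGA reads of UNM, went from 1723 to 2415, 5.15-fold lower (4.84 to 5.48), and tctgttgggcttt from 272 to 166, 11.8-fold lower (9.72 to 14.4). The group with the third anticodon base, aaatctgttgggc, went from 38 to 740, 2.70-fold higher (1.95 to 3.84). The labels bear on these values: with the same sequences counted by all their reads, the ratio was 1.05 (0.867 to 1.29) for aaatctgttgggc and 0.556 (0.528 to 0.587) for aatctgttgggct, and did not change for tctgttgggcttt. Over all sequences with the start aatctgttgggct, whatever their label, reads went from 2466 to 20732, a ratio of 1.16 (1.12 to 1.21) and so not lower in BCP. Over all sequences with the start aaatctgttgggc the ratio was 1.87 (1.60 to 2.20). The 3′ groups named here thus had a lower share in BCP in both isoacceptors. Among CGA 3′ reads, those of 30 nt or more were 9 of 324 in UNM and 193 of 488 in BCP (2.78% and 39.5%). For AGA they were 0 of 263 and 57 of 237 (0% and 24.1%). Of the 6 CGA 3′ sequences compared, 2 were higher and 4 lower (33.3% and 66.7%, against 68.2% and 17.2% of all sequences). The 2 AGA ones compared were lower. A higher CGA one was the 31-nt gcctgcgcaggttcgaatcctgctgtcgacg, with 3 and 81 reads, 3.74-fold higher (1.23 to 18.5).

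Both isoacceptors were short at both stages, as TGA was, while GCT and GGA were mostly long in BCP. Fragments of at most 20 nt held 99.8% of AGA reads in UNM and 97.0% in BCP, and 95.4% and 97.9% of CGA reads. The most frequent AGA length was 14 nt in UNM (73.3% of reads) and 15 nt in BCP (46.9%), and that of CGA was 13 nt (51.5%) and 17 nt (88.5%). Reads of 30 nt or more were 11 of the AGA reads in UNM (0.0681%, 0.0340 to 0.122) and 274 in BCP (1.22%, 1.08 to 1.38). For CGA they were 101 in UNM (2.51%, 2.05 to 3.04) and 992 in BCP (1.40%, 1.31 to 1.49). The lower value in BCP rests on reads of 40 nt, which are 84 of the 101 in UNM, a length above the longest sequence of the BCP list, 39 nt. Up to 39 nt, long reads were 17 of 3942 CGA reads in UNM (0.431%, 0.251 to 0.690) and 1.40% in BCP, 3.24-fold higher (2.01 to 5.59). By comparison, long reads made up 0.0639% of TGA reads in UNM and 2.51% in BCP, 13.1% and 70.6% of GCT reads, and 7.27% and 92.6% of GGA reads. The long share of CGA was 36.8-fold that of AGA in UNM (19.7 to 76.1), and in BCP the ratio was 1.14 (0.999 to 1.31), whose interval includes 1. Both ratios depend on the reads counted. Up to 39 nt, the long share in UNM was 0.431% for CGA and 0.0310% (0.0101 to 0.0723) for AGA. Without the separate stretch described below, the long share of CGA in BCP was 0.283% (0.245 to 0.325), below the 1.22% of AGA.

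The long reads of the isoacceptors came from different regions. Long AGA reads of BCP were 5′ fragments in 70.8% and 3′ fragments in 20.8%. Long CGA reads of UNM were loop-start fragments in 84.2%, most of them of 40 nt. The leading one is shown because it runs from just past the anticodon loop into the 3′ side of the tRNA.
CGA loop, 40 nt: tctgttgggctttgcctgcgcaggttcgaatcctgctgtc
It had 38 reads in UNM, none in BCP, and is listed in TCP. Its 40 nt are the longest length in the UNM list. Whether the fragment itself ends there or runs on was not tested.

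In BCP, 80.0% of the long CGA reads (794 of 992) did not place on the assembled tRNA. They belong to 111 CGA-labelled sequences, of 13 to 40 nt, that overlap in a separate stretch of 46 bases, which the sources used here do not annotate further. Only their label ties them to a serine tRNA, and their origin was not tested. None of them carries another label, and 50 are listed in TCP. The leading sequence present at all 3 stages and the most abundant one in BCP are shown.
CGA, separate stretch, 36 nt: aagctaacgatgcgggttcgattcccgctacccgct
CGA, separate stretch, 39 nt: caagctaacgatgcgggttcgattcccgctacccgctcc
The first had 1 UNM read and 132 BCP reads, 18.3-fold higher in share (3.22 to 727). The second had no reads in UNM, where the 0 was set to 3 counts, or 0.000437%, and 157 reads in BCP. With that setting its share was 7.25-fold higher, with an interval from 5.83 upward, and it is not listed in TCP. All sequences of this stretch together had 9 and 866 reads, 13.3-fold higher (6.99 to 29.2). Without them and up to 39 nt, long CGA reads were 13 of 3935 in UNM (0.330%, 0.176 to 0.564) and 198 of 70084 in BCP (0.283%, 0.245 to 0.325), a ratio of 0.855 (0.489 to 1.63) whose interval includes 1.

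By presence, the abundant fragments of both isoacceptors were also listed in TCP. Of the AGA sequences of UNM, 41 of 106 are in the TCP list, and these held 97.0% of the AGA reads of UNM. Of those of BCP, 79 of 254 are, with 97.5% of the reads. For CGA, 74 of 161 UNM sequences with 94.6% of reads and 126 of 350 BCP sequences with 98.8% of reads are listed. The sequences absent from TCP were thus mostly rare ones. The same percentages over all sequences of the lists are not given here, so nothing in this overlap can be called particular to these isoacceptors.

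Seen from TCP, 71.2% of its 111 AGA sequences are in BCP and 36.9% in UNM, and 75.4% of its 175 CGA sequences are in BCP and 44.6% in UNM. The BCP list is the larger, so these percentages do not rank the stages by likeness. Loop-start sequences were the most numerous class in TCP for both, 52 of the 111 for AGA and 69 of the 175 for CGA. 5′ sequences numbered 18 and 13. The separate CGA stretch gave 50 of the 175. Sequences of 30 nt or more were 18 of the 111 for AGA and 55 of the 175 for CGA.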

How the data were processed

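Per the file headers, the 3 columns of a list are anticodon, sequence and count. For UNM and BCP the deposited counts are raw reads, given for each distinct sequence. The numbers the authors deposited for TCP repeat along nested fragments and were used for presence only. The tools named in the submitters' processing notes include Bowtie 1.1.2. The reference, build, trimming and options were not given in the sources used here, and no genome was used.

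Sequences were joined by identity and counted under each list's own label, single sequences by all their reads. Intervals are exact Clopper-Pearson for shares and exact conditional binomial for ratios, at 95%. For ratios, a count of 0 was replaced by 3, or 0.000437% in UNM and 6.05e-05% in BCP, while intervals used the counts as they are. The calls were tried on simulated counts drawn with counting error only. These hold no variation between libraries, so they do not check the differences between stages. Parent sequences were assembled by overlaps of 12 bases, and fragments placed ungapped with at most 20% mismatches, or 3 where that is more.

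The text names, per anticodon, the 6 sequences with most reads in UNM and the 6 in BCP, and the 3 largest rises and falls from 50 summed reads on, keeping of sequences with the same first 13 bases only the one with the largest summed share, whatever its ratio. Groups of one 13-base start with at least 1% of an anticodon's reads are described. Other sequences, the placement and the separate CGA stretch were chosen after their values were seen. Members and lists were chosen with earlier results of these data known. Python 3.11.15, numpy 2.4.6, pandas 2.3.3 and scipy 1.17.1 were used.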

Additional observations from a re-analysis of the deposited data

How the results depend on the processing

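Values are log2 ratios of BCP to UNM. The AGA share (-2.38) kept its direction under every setting tried: -1.75 without tRNA-Asp reads, -0.54 of tRNA-Ser reads, -2.18 up to 33 nt, -1.03 without the most abundant sequence of each library and -0.17 by distinct sequences. The CGA share (1.29) was 1.92, 3.12, 1.501, -1.23 and -0.31 under the same settings, 1.95 with 1 anticodon in every list, and, in settings added after seeing the data, -1.62 without the 17-nt fragment, -2.22 with all TGA-labelled reads added and 0.997 with only those that place on the CGA sequence. The AGA long share (4.17) was 2.82 without the most abundant sequences, 0.27 by distinct sequences and 5.30 up to 39 nt, the longest in both lists. The CGA long share (-0.84) was 1.67 and 0.33 there, -1.51 with 1 anticodon in every list, -3.07 without the separate stretch, 1.70 up to 39 nt and -0.23 with both limits, the last 3 added after seeing the data, as was the AGA value up to 39 nt. Of the regions, with settings added after seeing the data, AGA 5′ (-6.25) was -6.45 without mismatches and -5.62 without tRNA-Asp, AGA loop-start (2.64) 3.27 without tRNA-Asp, CGA 5′ (2.58) 3.22 without tRNA-Asp and 2.22 with placed TGA reads, and CGA loop-start (-1.66) -2.02, -1.02 and -0.17 under these 3. The change of the AGA to CGA ratio (-3.67) was -4.33 with 1 anticodon in every list, -0.76 without the 17-nt fragment and 0.19 without the most abundant sequences. From 200 summed reads on, 7 AGA sequences were higher and 5 lower, and 9 and 3 CGA ones. With BCP thinned to the UNM total, where 15 AGA and 16 CGA sequences were compared, 6 AGA were higher and 9 lower, and 6 CGA were called in each direction. From 20 reads on, 15 AGA and 21 CGA sequences were called in each direction. Percentages over all sequences are not given for the thinned setting or for the minimums of 20 and 200 reads, so these counts have no background. From 10 reads on, 54.5% of AGA sequences of UNM and 76.8% of BCP were in TCP, and 83.3% and 84.1% of CGA ones, again without the percentages over all sequences. Apart from fewer sequences compared at higher minimums, the cause was not tested. No paired analysis was possible because each stage has 1 library, and for the same reason no replicate could be left out. Depth limits sequences with 1 to 3 reads in UNM, whose ratios have wide intervals.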

Other observations

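Single-read sequences made up 46.2% of the distinct AGA sequences in UNM and 39.4% in BCP, and 50.9% and 42.0% of the CGA ones.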
